A study of Mus musculus with 15 samples.

Results

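Liver expression of 10 genes of the sirtuin and NAD system was described in 15 female C57BL/6 mice. The 10 genes were chosen by symbol and are the 7 sirtuins (Sirt1 to Sirt7), the NAD-making enzymes Nampt and Nmnat1, and the NAD-consuming enzyme Cd38. All 10 were found among the 55450 genes of the count table, each under a single Ensembl identifier, and all 10 passed the filter on low counts that left 15808 genes for testing. The study asked how aging alters health in mice and whether protectin DX (PDX), a lipid mediator derived from docosahexaenoic acid that takes part in the resolution of inflammation, alters it in old animals. At the start of the experiment the Adult group (A1 to A5) had an age of 6 months, and the Old (O1 to O5) and PDX (P1 to P5) groups one of 22 months. Daily gavage for 9 weeks delivered 30 ng of PDX per g of body weight to the PDX group and the corn oil vehicle alone to the Adult and Old groups. Each mouse gave 1 mRNA library, with no pooling of animals, so that the 5 mice of a group were its replicates.

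Sirtuins are enzymes that remove acetyl and other acyl groups from lysines of proteins, and each reaction consumes a molecule of NAD+. In the liver the family is known for its link between nutrient state and fuel use: SIRT1, SIRT6 and SIRT7 act in the nucleus, SIRT2 mainly in the cytoplasm, and SIRT3, SIRT4 and SIRT5 in mitochondria. Hepatocytes make NAD+ from tryptophan by the de novo route, from nicotinic acid by the Preiss-Handler route and from nicotinamide by the salvage route, whose rate-limiting enzyme is NAMPT. PARP enzymes and the glycohydrolase CD38 compete with the sirtuins for the NAD+ that is made.

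The libraries held between 22424383 and 36070835 counted read pairs, and libraries of the same group correlated at r = 0.836 to 0.988 across genes. The hepatocyte markers, albumin among them, were detected in all mice, with a summed level of at least 62640 counts-per-million units (CPM). The Old mice O2 and O5 stood apart from the other mice in the expression of many genes. O5 had the highest frailty index (0.56) of the 15 mice and 4 positive frailty criteria. O2 had an index of 0.11, but 3 positive criteria and the shortest treadmill distance of the 15 mice (33.9 m). The study classed mice with 3 or more positive criteria as frail. For the 10 genes, values that rest on O2 and O5 are therefore also given without them, as are call counts of other gene lists. The mice of a group were separate animals. A lower level in whole liver cannot tell less RNA per cell from fewer cells of a type.

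The sequence just upstream of the start of transcription is shown for 3 of the genes, Sirt3 because its expression differed between age groups, and Sirt1 and Nampt because Nampt is a known target of the circadian clock and SIRT1 a known partner of it. All 10 genes had a RefSeq promoter window (build GRCm38.p6, 250 bases before to 50 bases after the start), 13 windows in all. The stretches below are the longest runs of each upstream part that hold no exon of a coding transcript, read 5′ to 3′ on the strand of the gene. Capitals mark 2 motifs searched on both strands, the E-box CACGTG, which clock factors can bind, and the GC box GGGCGG, which SP-family factors can bind. No E-box overlaps a GC box in these stretches, and the first 2 GC boxes of Sirt1 share letters.
Sirt3, chr7:140881870-140881967, minus strand: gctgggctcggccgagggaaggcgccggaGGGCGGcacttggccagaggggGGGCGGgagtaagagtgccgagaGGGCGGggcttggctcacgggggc
Sirt1, chr10:63339051-63339285, minus strand: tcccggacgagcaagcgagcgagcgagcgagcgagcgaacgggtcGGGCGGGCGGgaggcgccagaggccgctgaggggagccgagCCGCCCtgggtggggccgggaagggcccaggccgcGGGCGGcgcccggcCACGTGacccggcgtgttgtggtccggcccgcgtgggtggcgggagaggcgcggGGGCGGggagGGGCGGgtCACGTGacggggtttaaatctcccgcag
Nampt, chr12:32820085-32820334, plus strand: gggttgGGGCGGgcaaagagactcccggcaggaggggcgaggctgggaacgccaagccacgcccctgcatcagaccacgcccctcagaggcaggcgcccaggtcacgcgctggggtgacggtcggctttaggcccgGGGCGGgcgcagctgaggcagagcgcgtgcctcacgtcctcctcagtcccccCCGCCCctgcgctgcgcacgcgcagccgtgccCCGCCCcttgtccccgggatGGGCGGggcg
The Sirt1 window held 2 E-boxes, which start 115 and 43 bases before the start of transcription, and was the 1 window with that motif among the 13, against 7.15% of 32851 RefSeq promoter windows. The GC box was found in 9 of the 13 windows, which belong to 8 genes, and in 35.7% of all windows. The Sirt3 stretch lies before the second of 2 annotated RefSeq starts, since the window of the other start is covered by an exon of Psmd13 on the opposite strand.

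Sirt3, which encodes the main deacetylase of mitochondrial proteins (ENSMUSG00000025486, chr7:140863666-140882309, minus strand, GRCm38), was the most abundant of the 10 genes in Adult liver and had about 57% of that abundance in Old liver. In the Adult mice A1 to A5, Sirt3 was measured at 101, 99.8, 109, 113 and 98.4 CPM, the unit CPM being scaled by the trimmed mean of M-values (TMM). In O1 to O5 it was measured at 59.3, 35.2, 76.4, 58.1 and 67.6 CPM, and in P1 to P5 at 48.6, 52.3, 55.0, 55.8 and 78.4 CPM. All 10 mice of the older groups lay below the lowest Adult mouse, with O2 lowest of all and P5 highest among them. The Sirt3 level fell in Old compared with Adult mice, with a log2 fold change of -0.81 ± 0.18 (SE), 57.0% of the Adult level (adjusted p = 0.0240, quasi-likelihood test of edgeR with Benjamini-Hochberg adjustment over all genes). It was likewise lower in PDX than in Adult mice, by a log2 fold change of -0.84 ± 0.18, 55.7% of the Adult level (edgeR adjusted p = 0.0212). Both of these comparisons use the same 5 Adult mice. Between PDX and Old mice the log2 fold change of Sirt3 was -0.03 ± 0.18 (edgeR adjusted p = 0.970).

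Sirt3 was the only member past the threshold of 0.05, 1 of 10 both in Old against Adult and in PDX against Adult. Over all genes tested, 6.78% passed in Old against Adult (2.07% as lower) and 2.66% in PDX against Adult (0.898% as lower), so that a single call among 10 genes is near the background share. With DESeq2 3 and 1 members passed in these comparisons, and with limma-voom 2 and 1. Over all genes DESeq2 called 2605 of 19262 and 1388 of 18726, and limma-voom 469 and 299 of 15808. The Sirt3 difference kept its direction under all 19 alternatives tried for either comparison with Adult, with log2 fold changes of -0.92 to -0.66 in Old and -0.98 to -0.79 in PDX mice. It passed the threshold in 13 of them for Old against Adult and in 10 of them for PDX against Adult. Leaving out any single Adult mouse gave adjusted p-values between 0.0535 and 0.0613 for Old against Adult, and a fit of these 2 groups alone gave 0.0880. Leaving out any single Old mouse kept the Old against Adult value between 0.00917 and 0.0336, and without both O2 and O5 the log2 fold change was -0.68 (adjusted p = 0.0163). For PDX against Adult, leaving out any single Adult mouse, or P1, P2, P3 or P4, gave adjusted p-values between 0.0511 and 0.0671. Without P5 that value was 0.00958.

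The exons of Sirt3 overlap those of Psmd13, a proteasome subunit, and of Ric8a, a chaperone of G protein subunits, both on the opposite strand, and reads were counted by strand. Psmd13 had a log2 fold change of 0.28 ± 0.17 between Old and Adult mice (edgeR adjusted p = 0.282), and Ric8a of 0.51 ± 0.25 (edgeR adjusted p = 0.196). Neither neighbour was measured lower in the old animals. The summed CPM of 8 hepatocyte markers ranged from 134469 to 146868 in Adult, from 62640 to 204587 in Old and from 110866 to 164969 in PDX mice. Albumin makes up most of this sum. Of the 8 hepatocyte markers 6 had a log2 fold change below 0 in Old against Adult, with a median of -0.51 where that of all genes was 0.07, and Ttr, Cyp2e1 and Cyp3a11 were lower in every Old than in every Adult mouse. Cyp2e1, a cytochrome P450, fell both in Old (log2 fold change -1.50 ± 0.31, edgeR adjusted p = 0.0184) and in PDX compared with Adult mice (-1.60 ± 0.31, edgeR adjusted p = 0.0139), and was the 1 marker of the list past the threshold in either comparison. In Old against Adult DESeq2 called 3 of the 8 and limma-voom 1. With O2 and O5 left out, edgeR called 2 of them in Old and 3 in PDX against Adult, 1 as higher in each. Over all genes that fit called 1158 of 16275 in Old and 4004 in PDX against Adult. The part of these hepatocyte marker changes in the Sirt3 values was not tested.

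**Figure D1:**
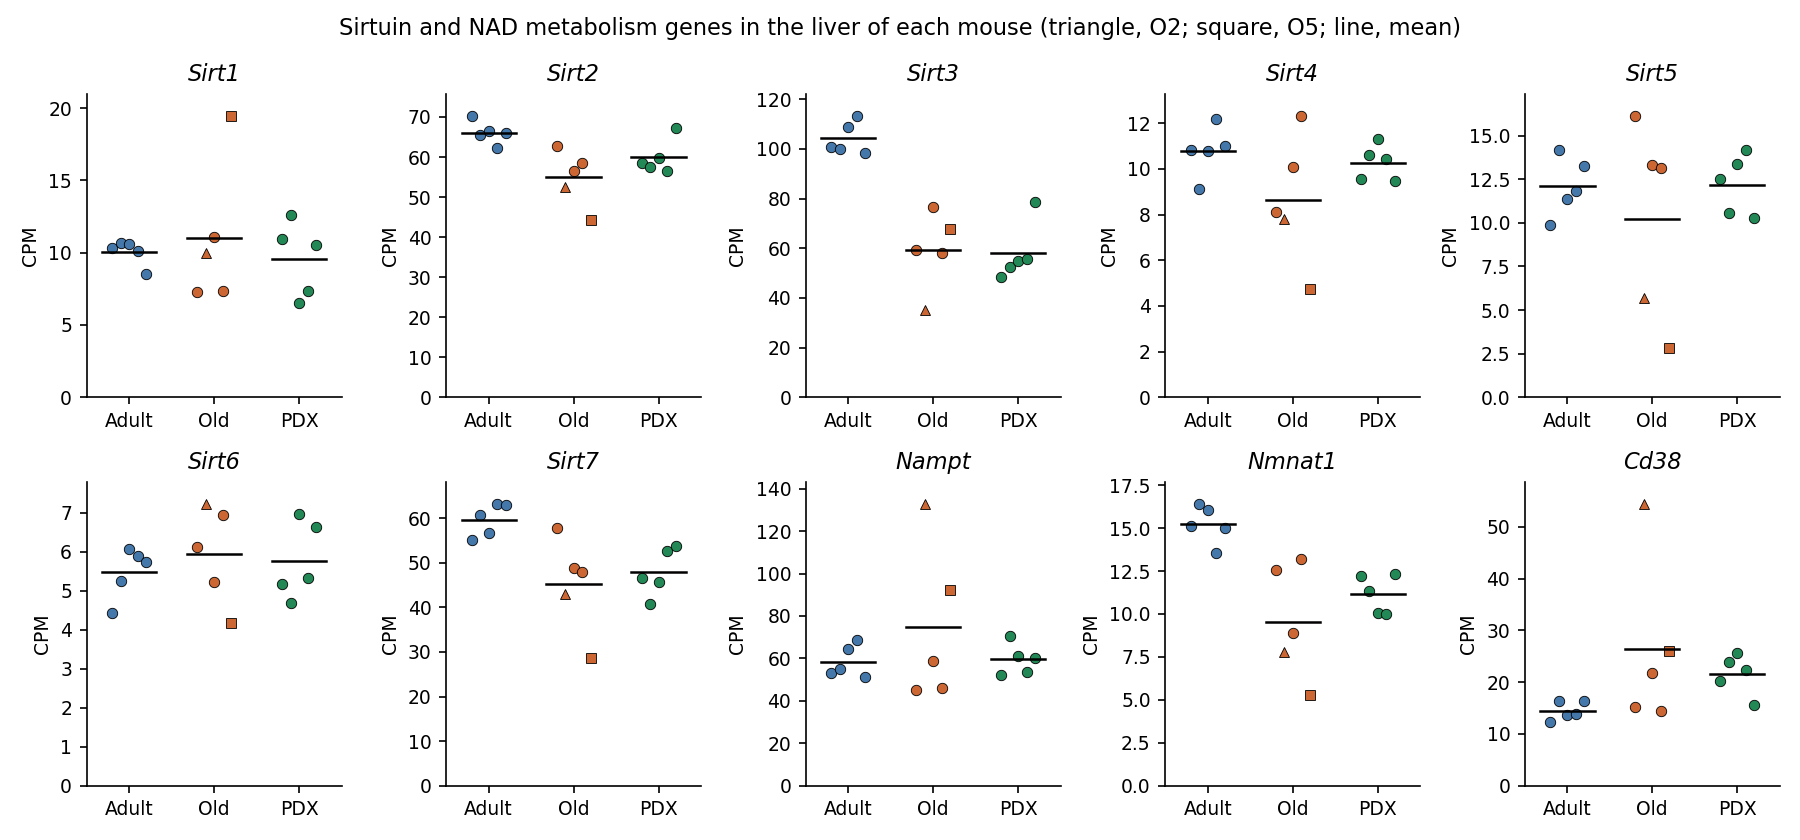
Expression of each of the 10 genes in each of the 15 mice, in CPM on a linear axis from 0, with Adult, Old and PDX side by side, a line at the mean of each group of 5, and the mice O2 and O5 as a triangle and a square. Sirt3 lies between 98.4 and 113 CPM in Adult mice and between 35.2 and 78.4 CPM in all older mice, whereas most other genes overlap between groups and spread most in Old mice.

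The other mitochondrial sirtuins did not pass the test. Sirt4, which acts on glutamate dehydrogenase and other mitochondrial enzymes (ENSMUSG00000029524, chr5:115478010-115484725, minus strand), was measured at 10.8, 9.12, 10.8, 12.2 and 11.0 CPM in A1 to A5, at 8.11, 7.82, 10.1, 12.3 and 4.76 CPM in O1 to O5, and at 9.45 to 11.3 CPM in PDX mice. O4 was the highest and O5 the lowest of all 15 mice for Sirt4, so that the Old group enclosed the other groups. Sirt4 had a log2 fold change of -0.32 ± 0.19 in Old against Adult (edgeR adjusted p = 0.293) and -0.07 without O2 and O5. Sirt5, which removes succinyl, malonyl and glutaryl groups (ENSMUSG00000054021, chr13:43365496-43395203, plus strand), was measured at 9.89, 14.2, 11.3, 11.8 and 13.3 CPM in A1 to A5 and at 16.1, 5.69, 13.3, 13.1 and 2.81 CPM in O1 to O5. O2 and O5 lay below every other mouse for Sirt5, while O1 was the highest. The log2 fold change of Sirt5 in Old against Adult was -0.25 ± 0.34 (edgeR adjusted p = 0.674), and it turned to 0.24 without O2 and O5. In P1 to P5 Sirt5 was measured at 12.5, 10.5, 13.4, 14.2 and 10.3 CPM and overlapped the Adult values, with a log2 fold change of 0.01 ± 0.34 against Adult (edgeR adjusted p = 0.992).

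Among the nuclear and cytoplasmic sirtuins, Sirt7 and Sirt2 were the 2 with measured differences beyond 2 standard errors in Old against Adult, and neither passed the adjusted threshold. Sirt7, which acts on chromatin and supports ribosomal RNA synthesis (ENSMUSG00000025138, chr11:120618372-120625240, minus strand), was measured at 55.0, 60.7, 56.6, 63.1 and 63.0 CPM in A1 to A5. In O1 to O5 it was measured at 57.9, 43.1, 48.9, 47.9 and 28.6 CPM, and in P1 to P5 at 46.6, 40.8, 45.8, 52.7 and 53.8 CPM. All PDX mice lay below all Adult mice, and of the Old mice O1 alone overlapped the Adult range. The log2 fold change of Sirt7 was -0.40 ± 0.15 in Old against Adult (edgeR adjusted p = 0.107) and -0.32 ± 0.15 in PDX against Adult (edgeR adjusted p = 0.253). Without O1 the former reached an adjusted p of 0.0492, and without O2 and O5 it was -0.20 (adjusted p = 0.266). The exons of Sirt7 overlap those of Mafg, a small MAF transcription factor, on the same strand, where reads of the shared stretch cannot be assigned, and Mafg had a log2 fold change of -0.38 ± 0.17 in Old against Adult (edgeR adjusted p = 0.165).

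Sirt2, a deacetylase of tubulin and metabolic enzymes (ENSMUSG00000015149, chr7:28766735-28788661, plus strand), was measured at 70.2, 65.4, 66.4, 62.1 and 65.9 CPM in A1 to A5, at 62.8, 52.5, 56.4, 58.6 and 44.2 CPM in O1 to O5, and at 58.5, 57.6, 59.8, 56.6 and 67.3 CPM in P1 to P5. O1 and P5 reached into the Adult range, and the other older mice lay below it. Sirt2 had a log2 fold change of -0.27 ± 0.10 in Old against Adult (edgeR adjusted p = 0.113), -0.14 ± 0.10 in PDX against Adult (edgeR adjusted p = 0.475), and -0.14 in Old against Adult without O2 and O5. Sirt1, the deacetylase of PGC-1alpha and FOXO factors (ENSMUSG00000020063, chr10:63319005-63381704, minus strand), was measured at 10.3, 10.7, 10.6, 10.1 and 8.52 CPM in A1 to A5 and at 7.26, 9.98, 11.1, 7.35 and 19.5 CPM in O1 to O5. In P1 to P5 Sirt1 was measured at 10.9, 12.6, 6.52, 7.32 and 10.6 CPM. O5 stood alone as the highest of the 15 mice for Sirt1, and the groups overlapped among the others. Between Old and Adult mice the Sirt1 log2 fold change was 0.14 ± 0.25 (edgeR adjusted p = 0.765) and turned to -0.17 without O5. Sirt6, a chromatin deacetylase of DNA repair and glycolysis control (ENSMUSG00000034748, chr10:81621785-81627797, minus strand), had the fewest reads in total of the 10 genes, with 116 to 247 counts per mouse, and was measured at 4.44, 5.25, 6.06, 5.89 and 5.74 CPM in A1 to A5, at 6.11, 7.21, 5.23, 6.94 and 4.18 CPM in O1 to O5, and at 5.16, 4.69, 6.96, 5.32 and 6.63 CPM in P1 to P5. The 3 groups overlapped, with a log2 fold change of 0.12 ± 0.18 in Old and of 0.07 ± 0.18 in PDX against Adult (edgeR adjusted p = 0.698 and 0.861).

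Nampt, the rate-limiting enzyme of NAD salvage, did not differ in group means beyond its spread, and 2 Old mice held its highest values. Nampt (ENSMUSG00000020572, chr12:32819545-32853349, plus strand) was measured at 52.9, 55.0, 64.2, 68.9 and 51.1 CPM in A1 to A5, at 45.1, 133, 59.0, 45.9 and 92.0 CPM in O1 to O5, and at 52.0, 70.6, 61.2, 53.7 and 60.3 CPM in P1 to P5. O2 and O5 lay above all other mice, and O1 and O4 lay below all other mice. The log2 fold change of Nampt in Old against Adult was 0.36 ± 0.25 (edgeR adjusted p = 0.373) and turned to -0.21 without O2 and O5. In PDX against Adult it was 0.03 ± 0.25 (edgeR adjusted p = 0.966).

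Clock genes are given beside Nampt because its transcription is known to follow the circadian clock. By the test of edgeR 0 of the 13 clock genes passed in any comparison, with 0, 2 and 6 at an unadjusted p under 0.05 in Old against Adult, PDX against Old and PDX against Adult. DESeq2 called 2 of them in PDX against Adult, and limma-voom called 0. With O2 and O5 left out, edgeR called 1158 of all 16275 genes in Old and 4004 in PDX against Adult. Of the 13 clock genes it called 0 in Old and 4 in PDX against Adult. Their levels differed widely within the Adult group: Dbp, an output gene of the clock, ranged from 4.93 to 189 CPM, and Arntl, which encodes its core activator BMAL1, was 2.45 CPM in A4 and 28.9 to 39.3 CPM in the other Adult mice. In the same mice Nampt ranged from 51.1 to 68.9 CPM, with its highest value in A4. The summed clock level was highest in O5 (1046 CPM) and lowest in O2 (271 CPM), the mice with the 2 highest Nampt levels. The part of the time of tissue collection in these values was not tested.

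Nmnat1, the nuclear enzyme that joins nicotinamide mononucleotide to the adenylyl group of ATP to form NAD+ (ENSMUSG00000028992, chr4:149467572-149485202, minus strand), was measured lower in every older mouse than in every Adult mouse. Its level was 15.1, 16.4, 16.0, 13.6 and 15.0 CPM in A1 to A5, 12.6, 7.77, 8.89, 13.2 and 5.26 CPM in O1 to O5, and 12.2, 11.4, 10.1, 10.0 and 12.3 CPM in P1 to P5. O4 came closest to the Adult range, and O5 was lowest. For Nmnat1 the log2 fold change was -0.68 ± 0.20 in Old against Adult, which missed the threshold (edgeR adjusted p = 0.0540), and -0.44 ± 0.20 in PDX against Adult (edgeR adjusted p = 0.219). It passed in Old against Adult with DESeq2 (adjusted p = 0.0217) and limma-voom (0.0485), and when O1 (0.0343), O4 (0.0267) or O5 (0.0385) was left out, while without both O2 and O5 the log2 fold change was -0.39 (adjusted p = 0.0910).

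Separation of the groups without overlap was counted for all members. Between Old and Adult mice 2 of the 10 genes did not overlap, Sirt3 and Nmnat1, against 8.15% of all genes tested in either direction. Between PDX and Adult mice 3 of 10 did not overlap, Sirt3, Sirt7 and Nmnat1, against 19.9% of all genes, and all of these members were lower in the older group. The 10 genes had a median log2 fold change of -0.26 in Old against Adult, where the median of all genes was 0.07, and of -0.07 in PDX against Adult, where that of all genes was -0.01. For PDX against Adult the calls changed with the mice in the fit. When O2 and O5 were left out, a fit in which 4004 of 16275 genes passed, Sirt3, Sirt7 (adjusted p = 0.0291), Nmnat1 (0.0146) and Cd38 (0.0112) passed in PDX against Adult. The same 4 members passed in a fit of the PDX and Adult mice alone, in which 4529 of 15297 genes passed.

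**Figure D2:**
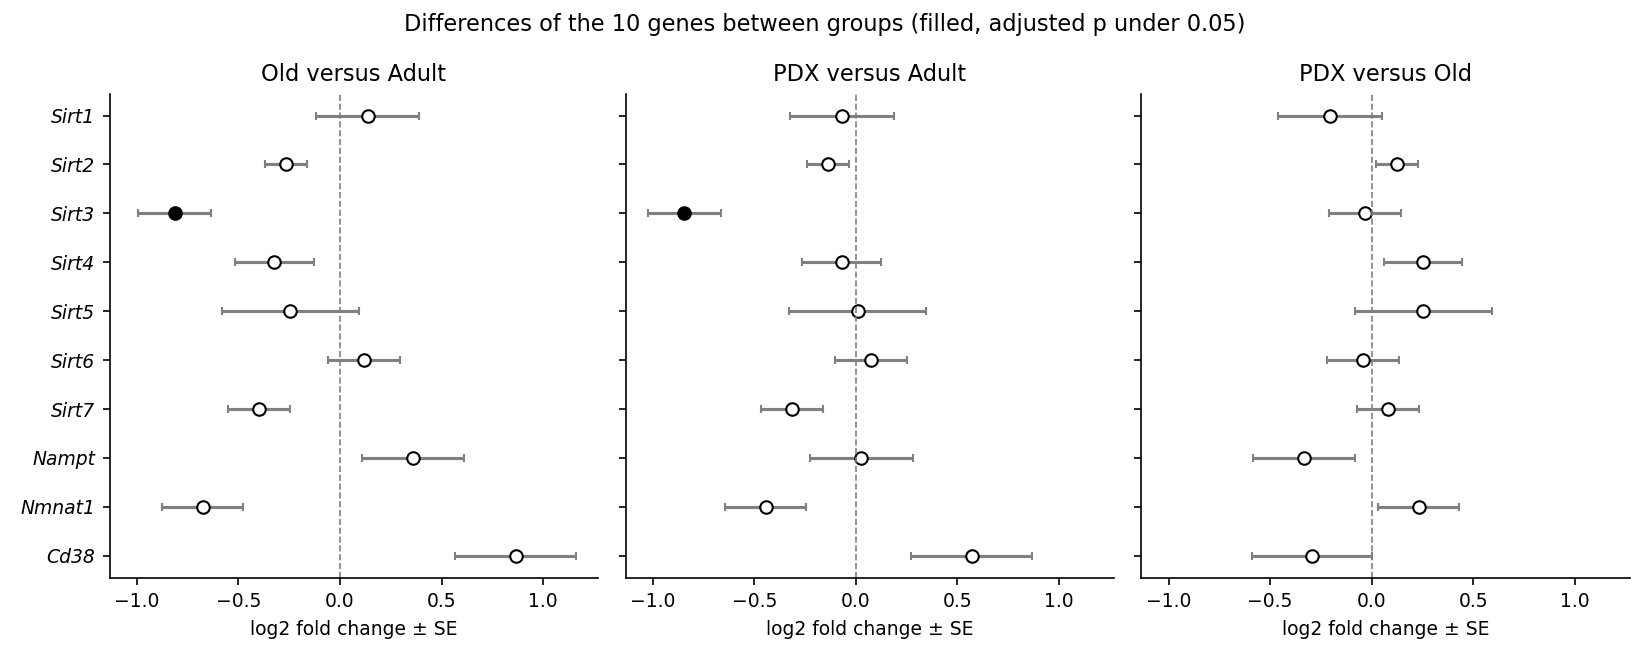
Log2 fold changes of the 10 genes with standard errors in Old against Adult, PDX against Adult and PDX against Old, on a common axis, with filled points past an adjusted p of 0.05. Sirt3 is filled at -0.81 and -0.84 in the comparisons with Adult, Nmnat1 lies at -0.68 and -0.44 and Cd38 at 0.86 and 0.57 without passing, and no point is filled between PDX and Old.

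Cd38, an NAD-degrading ectoenzyme known from immune cells, was measured highest in O2 (ENSMUSG00000029084, chr5:43868553-43912375, plus strand). Its level was 12.3, 16.3, 13.7, 13.9 and 16.3 CPM in A1 to A5, 15.2, 54.3, 21.8, 14.3 and 26.0 CPM in O1 to O5, and 20.3, 23.8, 25.6, 22.2 and 15.6 CPM in P1 to P5. O2, O3 and O5 and all PDX mice except P5 lay above the Adult range, and O1, O4 and P5 lay within it. The log2 fold change of Cd38 was 0.86 ± 0.30 in Old against Adult (edgeR adjusted p = 0.0784) and 0.57 ± 0.30 in PDX against Adult (edgeR adjusted p = 0.288). Without O2 the former fell to 0.42 (adjusted p = 0.191), and without O2 and O5 to 0.25 (adjusted p = 0.383). It passed with DESeq2 (adjusted p = 0.0406) and when O1 (0.0397) or O4 (0.0404) was left out.

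Markers of immune cells are given beside Cd38 for each class. The summed CPM of 9 Kupffer cell and macrophage markers was 524 to 794 in Adult mice, 4239 in O2, 394 in O5, 696 to 1140 in the other Old mice and 961 to 2184 in PDX mice. O5 had more Cd38 than any Adult or PDX mouse and the lowest macrophage sum of all 15 mice. The 8 T and NK cell markers likewise summed to 67.3 CPM in O2 and to 1.40 CPM in O5, against 3.73 to 7.61 CPM in Adult mice, and the 6 neutrophil markers to 139 CPM in O2 and 37.0 CPM in O5, against 5.04 to 10.1 CPM in Adult mice. The 7 B and plasma cell markers summed to 183 to 284 CPM in Adult, 284 to 355 CPM in Old and 295 to 402 CPM in PDX mice, and O2, with 324 CPM, lay within the Old range. By the test of edgeR in Old against Adult, 4 of 7 B and plasma cell markers and 3 of 5 tested neutrophil markers rose, while 0 of 9 macrophage and 0 of 7 tested T and NK cell markers passed (4 and 3 of them at an unadjusted p under 0.05). DESeq2 called 6, 5, 2 and 1 markers of these classes in the same order, and limma-voom 0, 1, 0 and 0. In PDX against Adult 1 B and plasma cell marker rose by the test of edgeR, with 7 of 7 at an unadjusted p under 0.05, 5 called by DESeq2 and 0 by limma-voom, and the other 3 classes had 0 calls, with 5 neutrophil, 5 macrophage and 1 T and NK cell markers at an unadjusted p under 0.05 4, 3 and 0 of them called by DESeq2, and 0 by limma-voom. The fit of edgeR without O2 and O5 called 4 B and plasma cell and 0 neutrophil, macrophage or T and NK cell markers in Old against Adult, and 7, 5, 8 and 4 markers of these classes, in this order, in PDX against Adult. Over all genes that fit called 1158 of 16275 in Old and 4004 in PDX against Adult. The defining markers were detected in every mouse except Ncr1 and Ly6g, each at 0 in some mice. The part of these cells in the Cd38 values was not tested.

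**Figure D3:**
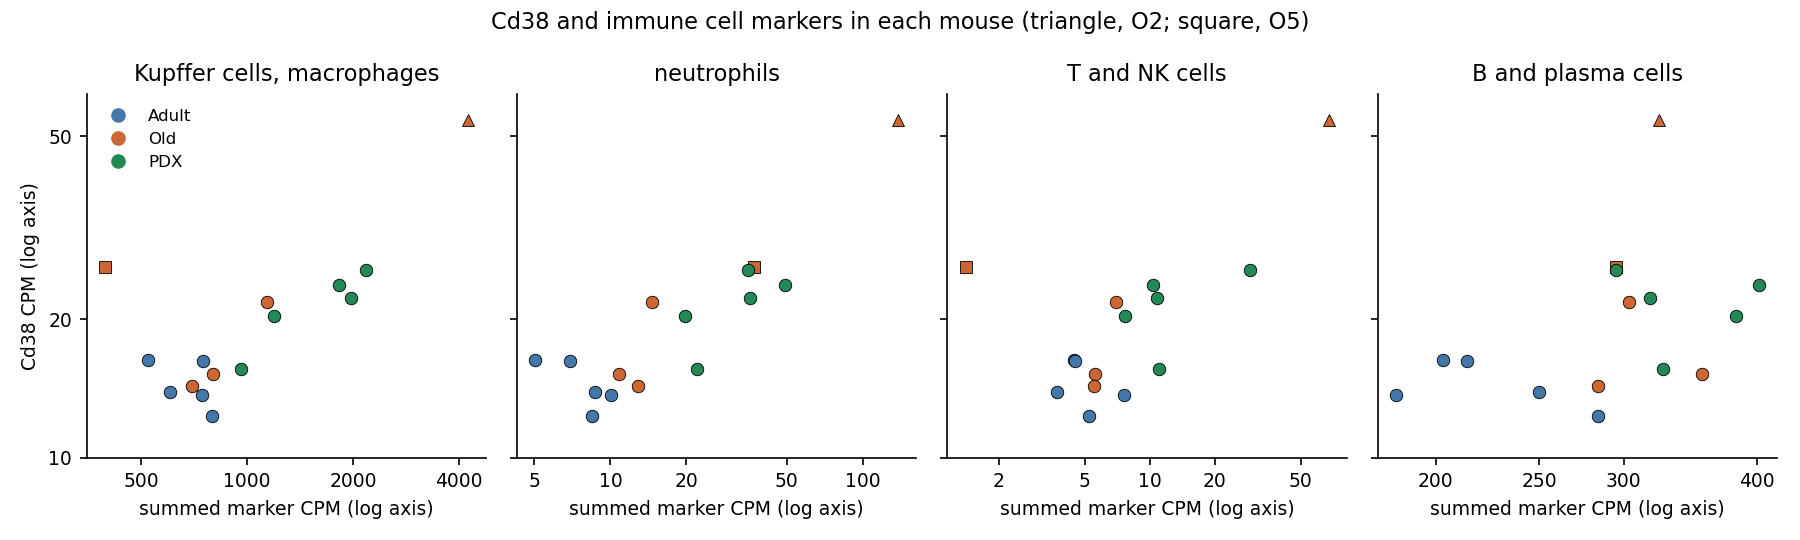
Cd38 in CPM against the summed CPM of marker genes of 4 immune cell classes in each of the 15 mice, on log axes, with groups by colour and O2 and O5 as a triangle and a square. O2 has the highest Cd38 (54.3 CPM) together with the highest macrophage, neutrophil and T and NK cell sums, whereas O5 has 26.0 CPM of Cd38 with the lowest macrophage (394 CPM) and T and NK cell (1.40 CPM) sums.

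No member differed between PDX and Old mice by the test of edgeR. The 10 genes had 0 calls and 0 with an unadjusted p under 0.05 or past the threshold with DESeq2 or limma-voom, against 0% of all 15808 genes called and 834 genes with an unadjusted p under 0.05, and DESeq2 called 1 gene, which was no member. None of the 10 separated PDX from Old mice without overlap, against 0.342% of all genes. The log2 fold changes in PDX against Old ran from -0.33 ± 0.25 for Nampt, -0.29 ± 0.29 for Cd38 and -0.20 ± 0.25 for Sirt1 to 0.23 ± 0.20 for Nmnat1, 0.25 ± 0.19 for Sirt4 and 0.25 ± 0.34 for Sirt5. For Sirt2, Sirt4, Sirt5 and Nmnat1 all 5 PDX values exceeded the Old mean, and for Nampt and Cd38 all 5 were under it. Those Old means rest on O2 and O5: without them the PDX against Old log2 fold change turned to 0.26 for Nampt, 0.33 for Cd38, 0.17 for Sirt1, -0.21 for Sirt5, -0.10 for Sirt7 and -0.04 for Nmnat1. It kept its sign for the other members, at 0.02 for Sirt2 (0.13 with all mice), 0.02 for Sirt4, -0.15 for Sirt3 and -0.07 for Sirt6. Sirt3, at 59.3 ± 15.4 CPM in Old and 58.0 ± 11.8 CPM in PDX mice (SD, n = 5 each), was the member with the smallest difference between these groups, and a standard error of 0.18 leaves room for a change of either sign.

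The spread between mice of a group was widest in Old mice for each of the 10 genes. The coefficient of variation of CPM was 4.39% to 13.8% in Adult, 12.8% to 62.1% in Old and 7.12% to 26.8% in PDX mice. It was higher in Old than in Adult mice for 10 of 10 members and for 89.8% of all genes tested, and higher in PDX than in Adult mice for 8 of 10 members and for 57.6% of all genes. Cd38 (62.1%), Sirt5 (55.5%), Nampt (50.0%) and Sirt1 (45.3%) varied most among Old mice, and Sirt2 (12.8%) varied least. Without O2 and O5 these values were 23.8%, 11.8%, 15.6%, 25.4% and 5.51%. The Old value then stayed above the Adult value for 9 of 10 members, Sirt5 being the exception, and for 65.6% of all genes. It lay below the PDX value for Sirt1, Sirt2, Sirt3, Sirt5, Sirt6 and Sirt7, and above it for Sirt4, Nampt, Nmnat1 and Cd38.

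Levels of different genes were compared per length, as transcripts-per-million values (TPM) computed from the counts and the summed length of the annotated exons. In Adult liver Sirt3 led at 44.6 ± 3.72 TPM (SD, n = 5) and lay above Sirt2 at 33.5 ± 1.40 TPM without overlap. Sirt2, Sirt7 (29.6 ± 2.23 TPM) and Nampt (29.6 ± 4.47 TPM) overlapped as neighbours in the order. Nmnat1 at 12.8 ± 0.595, Sirt4 at 11.5 ± 1.46 and Cd38 at 9.50 ± 1.05 TPM formed a middle range in which neighbours overlapped, and Sirt5, Sirt6 and Sirt1 overlapped at 5.06, 5.02 and 4.81 TPM. In Old liver Sirt3 ranked behind 2 genes at 26.6 ± 6.66 TPM, below Nampt at 43.7 ± 30.8 TPM and Sirt2 at 29.6 ± 4.97 TPM, and every pair of neighbours in the order overlapped. The lead of Nampt over Sirt3 rests on O2 and O5, with 94.1 and 51.1 TPM of Nampt. In O1, O3 and O4 Sirt3 (21.4, 35.7 and 23.2 TPM) lay above Nampt (19.2, 32.5 and 21.6 TPM). In PDX liver Sirt3 likewise stood at 24.6 ± 4.96 TPM, below Sirt2 at 30.1 ± 2.69 TPM and Nampt at 29.8 ± 3.64 TPM, with overlap between them. The separation of Sirt3 between Adult and older mice was also seen in TPM, with 41.2 TPM as the lowest Adult value and 35.7 and 32.6 TPM as the highest Old and PDX values. Nmnat1 separated in TPM as well, with 11.9 TPM as the lowest Adult and 10.3 and 10.1 TPM as the highest Old and PDX values. For Sirt2 and Sirt7 the mice that overlapped the Adult range differed by scale. In TPM O2 had 37.4 for Sirt2, above every Adult mouse, and 30.0 for Sirt7, within the Adult range, while O1, at 26.9 and 24.2 TPM, lay below every Adult mouse for both.

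**Figure D4:**
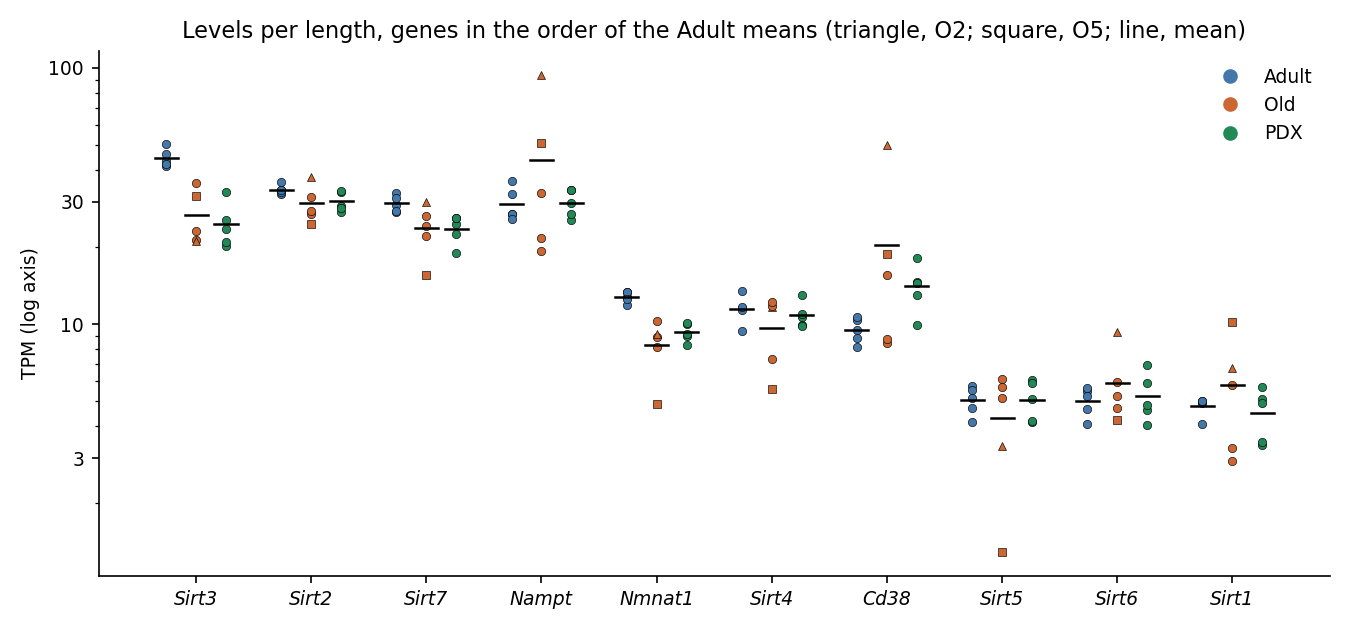
Levels of the 10 genes in TPM on a log axis in each of the 15 mice, ordered by the Adult mean, with a line at the mean of each group of 5 and O2 and O5 as a triangle and a square. Sirt3 stands above all other genes in Adult mice at 44.6 TPM and level with Sirt2, Sirt7 and Nampt in older mice, and Nampt reaches 94.1 TPM in O2.

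Other genes of NAD synthesis and use, sirtuin targets and SIRT1 regulators were taken from lists of 60 genes, of which 58 were tested. In Old against Adult 1 of the 58 rose and 2 fell (5.17%, against 6.78% of all genes), in PDX against Adult 1 rose (1.72%, against 2.66%), and in PDX against Old 0 passed with edgeR, DESeq2 or limma-voom. Both shares lie under the background of all genes. Both genes that fell belong to the list of the de novo route, which turns tryptophan into NAD+. Afmid, the kynurenine formamidase, was 82.1 to 141 CPM in Adult and 10.2 to 84.0 CPM in Old mice, with a log2 fold change of -1.50 ± 0.37 (edgeR adjusted p = 0.0297), and O3 alone reached the Adult range. Kynu, the kynureninase, was 189 to 249 CPM in Adult and 62.6 to 195 CPM in Old mice, with a log2 fold change of -0.98 ± 0.25 (edgeR adjusted p = 0.0339) and again with O3 alone in the Adult range. Without O2 and O5 Afmid kept its call (-1.08 ± 0.24, edgeR adjusted p = 0.0169) and Kynu did not (-0.68 ± 0.22, edgeR adjusted p = 0.0774). Of the 8 tested genes of this list 7 had a log2 fold change below 0 in Old against Adult, with a median of -0.69, and Acmsd was above 0 (0.41 ± 0.34, edgeR adjusted p = 0.463). The values were -0.99 ± 0.41 for Haao, -0.77 ± 0.47 for Tdo2 and -0.61 ± 0.21 for Kmo (edgeR adjusted p = 0.130, 0.305 and 0.0760). Without O2 and O5 the median was -0.39, with 6 of the 8 below 0, and these 3 genes had -0.49, -1.03 and -0.30. In PDX against Adult the median of the list was -0.36, and 0 genes of it passed by the test of edgeR or limma-voom, 3 having an unadjusted p under 0.05 and 1 a call by DESeq2. Tdo2, the first enzyme of the route and its most abundant gene, ranged from 163 CPM in O2 to 2075 CPM in O5, which enclosed the other 13 mice. Without O2 and O5, 1 gene of the route passed in Old against Adult and 4 in PDX against Adult by the test of edgeR. Over all genes that fit called 1158 of 16275 in Old and 4004 in PDX against Adult.

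Of the 6 tested salvage genes 0 passed in Old against Adult by the test of edgeR, 1 had an unadjusted p under 0.05, and DESeq2 and limma-voom each called 1, Nmnat1. Pnp, the purine nucleoside phosphorylase that can release nicotinamide from its riboside and has a near-identical copy with which it can share reads, had the highest mean TPM of them over the 15 mice (34.8, next to 34.4 for Nampt), with a log2 fold change of -0.29 ± 0.23 in Old against Adult. Naprt, which starts the Preiss-Handler route, had a log2 fold change of -0.30 ± 0.23, and Nadk, the cytosolic NAD kinase, one of -0.36 ± 0.17, with edgeR adjusted p of 0.423 and 0.181. Nnmt, which methylates nicotinamide and so removes it from salvage, was 65.8 to 891 CPM in Old mice and had a log2 fold change of 0.89 ± 0.53 (edgeR adjusted p = 0.282), and one of 0.20 ± 0.28 without O2 and O5.

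Among NAD-consuming enzymes, Parp2, which adds ADP-ribose at DNA breaks, rose in both older groups. Parp2 was 9.38 to 11.0 CPM in Adult, 13.5 to 16.1 CPM in Old and 12.6 to 15.3 CPM in PDX mice, with log2 fold changes against Adult of 0.50 ± 0.10 in Old and 0.49 ± 0.10 in PDX mice (edgeR adjusted p = 0.0173 and 0.0196). All 10 older mice lay above all Adult mice, and 14 of the 15 genes of the PARP list did not pass in either comparison. The fit without O2 and O5 called 2 genes of the list in Old and 5 in PDX against Adult, Parp2 and Parp3 among them in both. Over all genes that fit called 1158 of 16275 in Old and 4004 in PDX against Adult. In the fit of all 15 mice Parp3, which had the highest mean TPM of the list over those mice, had log2 fold changes of 0.35 ± 0.22 and 0.66 ± 0.22 against Adult (edgeR adjusted p = 0.319 and 0.112). Bst1, which encodes a homologue of CD38, was at 11.4 CPM in O2 and at most 1.59 CPM in the other 14 mice (log2 fold change 3.05 ± 0.93 in Old against Adult, edgeR adjusted p = 0.0591), and its log2 fold change was 0.07 ± 0.50 without O2 and O5.

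**Figure D5:**
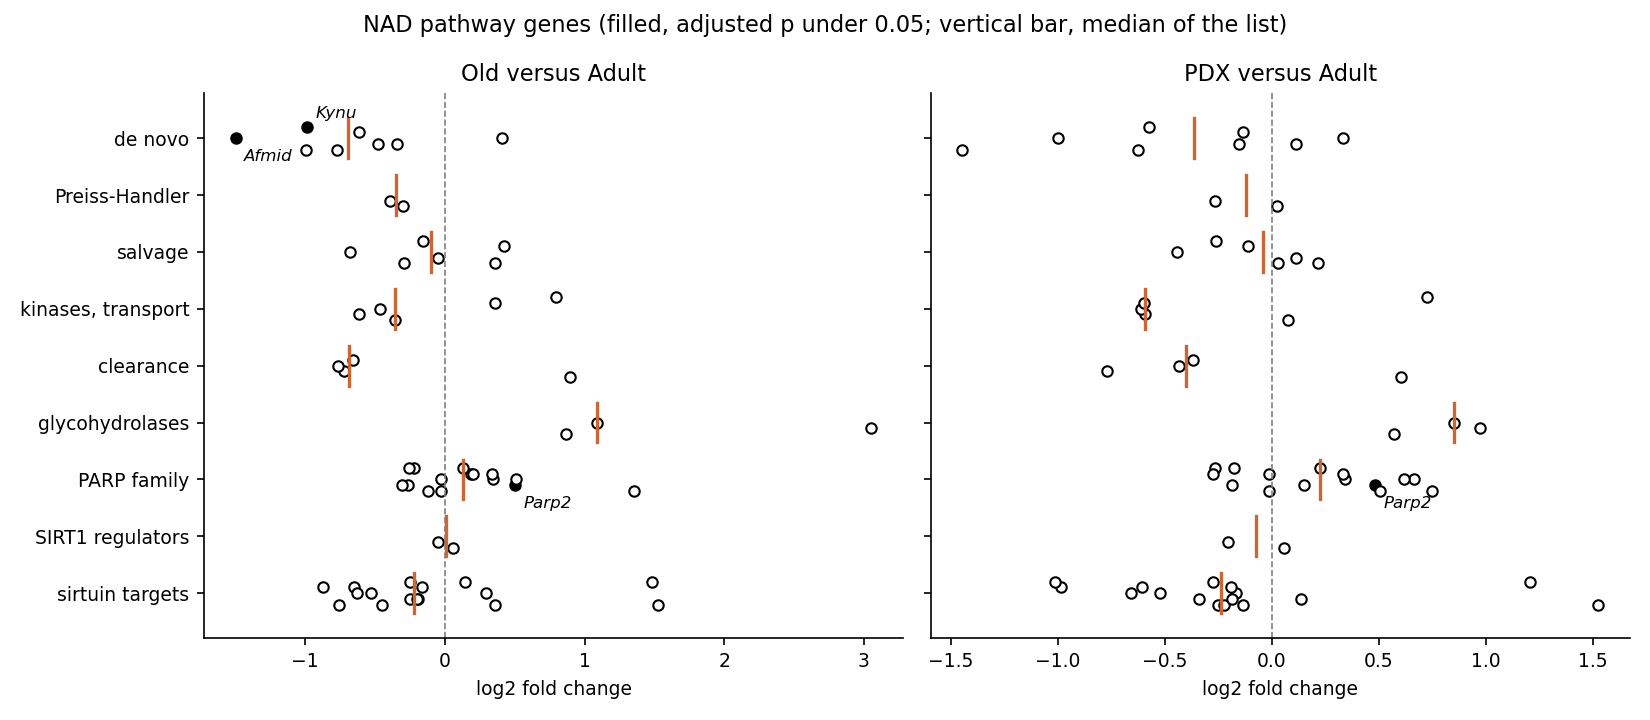
Log2 fold changes of the tested NAD pathway genes in Old against Adult and in PDX against Adult, 1 row for each list, with filled points past an adjusted p of 0.05 and a vertical bar at the median of the list. The members Nampt, Nmnat1 and Cd38 are plotted in their lists. The de novo list has its median at -0.69 in Old and -0.36 in PDX mice, with Afmid and Kynu filled in Old, and Parp2 is filled in both.

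Genes listed as sirtuin targets, whether or not sirtuins act on the product itself, and 2 regulators of SIRT1 did not pass in any comparison by the test of edgeR. Of 16 such targets 3, 1 and 5 had an unadjusted p under 0.05 in Old against Adult, PDX against Old and PDX against Adult, where DESeq2 called 2, 0 and 2 and limma-voom 0. Of the same targets, 11 had a log2 fold change below 0 in Old against Adult and 13 in PDX against Adult, with medians of -0.22 and -0.24. The values furthest above 0 were those of Ucp2, a mitochondrial carrier, with log2 fold changes of 1.52 ± 0.45 in Old and 1.53 ± 0.45 in PDX against Adult (edgeR adjusted p = 0.0522 and 0.0786), and of Acss1, the mitochondrial acetyl-CoA synthetase, with 1.48 ± 0.44 and 1.21 ± 0.44 (edgeR adjusted p = 0.0556 and 0.141). For both genes, and no other of the 16, all 5 PDX mice lay above all Adult mice. For 6 of the 16 all PDX mice lay below all Adult mice. Over all genes, 19.9% did not overlap between these groups in either direction. Without O2 and O5 edgeR called 2 of the 16 in Old against Adult, 1 of them Ucp2 (adjusted p = 0.0347), and 7 in PDX against Adult. Among mitochondrial targets of SIRT3, Idh2, an NADP-dependent isocitrate dehydrogenase, had log2 fold changes of -0.53 ± 0.26 in Old and -0.52 ± 0.26 in PDX against Adult (edgeR adjusted p = 0.207 and 0.275). Pck1, the gluconeogenic enzyme with the highest TPM of the targets, had -0.16 ± 0.43 in Old against Adult (edgeR adjusted p = 0.843), and Rps19bp1, an activator of SIRT1, had -0.05 ± 0.17 (edgeR adjusted p = 0.872).

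The genes whose log2 CPM followed Sirt3 most closely over the 15 mice were Slc25a20, the mitochondrial carnitine-acylcarnitine carrier (Pearson r = 0.970), Abcb6 (0.957) and Gnmt (0.955), and over the 13 mice without O2 and O5 these values were 0.958, 0.956 and 0.949. For Sirt1 they were Hip1r (0.919), Eif4ebp3 (0.902) and Pfkfb2 (0.899), with 0.892, 0.807 and 0.789 without these mice. For Nampt they were Rhoq (0.945), Synj1 (0.931) and Cbfb (0.925), which dropped to 0.762, 0.708 and 0.655 without O2 and O5. For Cd38 they were Nckap5l (0.974), Aida (0.966) and Cbl (0.963), with 0.924, 0.922 and 0.920 without these mice. These correlations are the highest of all genes tested and share the group structure and the libraries, so they are a description with no test. The Sirt3 and Cd38 lists rest less on O2 and O5 than the Nampt list does.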

How the data were processed

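Liver mRNA of 15 mice was sequenced as strand-specific paired ends. The authors aligned the reads to mm10 with STAR (2.6.0c) and deposited counts of unique proper pairs per Ensembl gene, made with featureCounts (Subread 1.6.2) and not normalized. They also deposited log2-scale values from the variance stabilizing transformation of DESeq2 (1.23.10), used here in 1 alternative. Symbols, coordinates and exon lengths came from GENCODE M21 (55104 of 55450 identifiers matched).

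Counts were filtered by group (filterByExpr, minimum count 10, minimum total 15), scaled by TMM and fitted in edgeR 4.0.16 (R 4.3.3) with all 15 mice and 1 coefficient per group, which share the spread. Old was compared with Adult, PDX with Old and PDX with Adult. P-values are two-sided with Benjamini-Hochberg adjustment and a threshold of 0.05. Library depth was 22424383 to 36070835 counted pairs. TPM were computed from the counts. On simulated counts for Old against Adult (15808 genes, 200 changed), 82.5% of genes changed by 2 on the log2 scale and 34% of those changed by 1 were recovered, and 0 genes were called when none was changed. Of the genes called, 7 of 172 and 0 of 68 were unchanged ones. The simulation gave a gene the same spread in all groups, whereas the median coefficient of variation was 36.6% in Old and 14.4% in Adult mice. Its rates may therefore not hold for these data. Alternatives were DESeq2 (1.42.0), limma (3.58.1), other scaling factors, no filter, fits of 2 groups, a replicate block and leaving out mice.

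Named genes were all members, called genes and the highest TPM gene of each NAD list, 4 clock genes, and the 3 genes most alike in pattern to Sirt1, Sirt3, Nampt and Cd38. Idh2, Ucp2, Acss1, Sod2, Haao, Kmo, Bst1, Ttr, Cyp2e1, Cyp3a11 and overlapping neighbours were named after their values were seen, as were the promoter motifs. The members and lists were chosen with earlier results of these data known. Euthanasia batches and Hallmark sets were not analysed here.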

Additional observations from a re-analysis of the deposited data

Results flagged for a closer look

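Among 21 genes tested in 3 groups of 5 mice each (63 groups), 5 groups held a mouse far from the other 4 by Dixon's criterion, and chance gives about 1 in 20 such groups. P5 had 78.4 CPM of Sirt3, against 48.6 to 55.8 CPM in the other PDX mice. A5 had 8.52 CPM of Sirt1, against 10.1 to 10.7 CPM in the other Adult mice. O5 had 113 CPM of Nadk, against 205 to 221 CPM in the other Old mice, and 891 CPM of Nnmt, against 65.8 to 232 CPM. P5 had 12.6 CPM of Parp2, against 14.7 to 15.3 CPM in the other PDX mice.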

How the results depend on the processing

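The genes called in Old against Adult (1072) numbered 105 in a fit of these 2 groups, 237 with the replicate block, 469 with limma-voom, 651 with limma on the deposited log2 values, 665 without the filter and 2605 with DESeq2. In PDX against Adult (420) they numbered 1388 with DESeq2, 4004 without O2 and O5 and 4529 in a fit of the 2 groups, and in PDX against Old DESeq2 called 1. Members called (1 in each comparison with Adult) numbered 0 in the 2-group fit, 2 with limma-voom and 3 with DESeq2 for Old, and 4 without O2 and O5 and 4 in the 2-group fit for PDX. Leaving out 1 mouse at a time gave 156 to 2178 genes and 0 to 4 members in Old against Adult, 166 to 585 genes and 0 to 1 members in PDX against Adult, and 0 in PDX against Old. The cause of these shifts was not tested.

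Of 570 member values under alternatives, 507 kept direction and call, 33 changed sign, 15 lost and 15 gained a call. Without O2 and O5 the log2 fold change turned in Old against Adult to -0.22 for Sirt1, 0.24 for Sirt5 and -0.21 for Nampt, and in PDX against Old to 0.17 for Sirt1, -0.21 for Sirt5, -0.10 for Sirt7, 0.26 for Nampt, -0.039 for Nmnat1 and 0.33 for Cd38. With 1 mouse left out, values of both signs were found for Sirt1 in Old against Adult (-0.17 to 0.28), for Sirt1 (-0.19 to 0.043), Sirt5 (-0.052 to 0.070), Sirt6 (-0.0042 to 0.14) and Nampt (-0.041 to 0.092) in PDX against Adult, and for Sirt1 (-0.34 to 0.10), Sirt3 (-0.17 to 0.076), Sirt6 (-0.15 to 0.032), Sirt7 (-0.045 to 0.18) and Cd38 (-0.45 to 0.15) in PDX against Old. None of these differences passed the threshold in any alternative.

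Same-numbered mice were different animals, and their deviations from the group means correlated at -0.17, 0.09 and 0.03 on average in Old against Adult, PDX against Old and PDX against Adult, so the numbers were not taken as pairs. With the replicate block the Sirt3 log2 fold change was -0.85 (adjusted p = 0.0376) and -0.86 (0.0273) against Adult, and in PDX against Adult Nampt and Sirt5 turned to -0.0030 and -0.050. At this depth and 5 mice a group, a gene changed by 1 on the log2 scale was recovered in 34% of simulated cases, so smaller differences may have gone undetected. The simulation did not carry the wider spread of the Old mice.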

Other observations

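The symbol Nnt, the nicotinamide nucleotide transhydrogenase of mitochondria, did not map to a single identifier, and the identifier with the largest total count was used. It had 12 to 52 counts per mouse, and its level was 1.38 ± 0.28 CPM in Adult, 1.00 ± 0.45 CPM in Old and 0.90 ± 0.25 CPM in PDX mice (SD, n = 5 each).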
